A study of Homo sapiens with 4 samples.

Results

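Protocadherins are the largest family of cadherin-type adhesion proteins, and this account covers the 60 protein-coding genes whose symbol starts with PCDH and that all 4 raw count tables list, of 29387 genes listed in all 4. They were chosen by name and gene type, not by their values, though with earlier results of these data known. Of the 60, 49 lie in the 3 clusters on chromosome 5 (11 PCDHA, 16 PCDHB and 22 PCDHG genes) and 11 are non-clustered. Another 6 genes were listed for a single pair of libraries, PCDH20 in pair 1 and PCDHA4, PCDHA5, PCDHA6, PCDHA12 and PCDH11Y in pair 2. They had at most 2 counts in any library and entered no comparison.

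U87MG, an established human glioblastoma cell line, had been given 1 week to invade organotypic brain slices, which are living brain sections in culture, in a neural stem cell medium that held the growth factors FGF and EGF. Highly invasive cells and poorly invasive control cells were then taken from the slices and grown for 3 to 5 days before mRNA sequencing. There were 2 invasive populations and 2 control populations, each with 1 library of 13829871 to 17817756 counts, and the series pairs each invasive population with the control of the same number. The labels name no engineered allele or drug for either group, and both come from the same parental line. Where 4 values stand in a row, they are those of pair 1, control before invasive, and then of pair 2 in the same way. The populations passed through culture after isolation, so levels inside the slice were not measured. The p-values rest on the spread between these 4 libraries, which for each gene is largely borrowed from other genes.

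Clustered protocadherins are single-pass membrane proteins whose genes stand side by side. Each PCDHA and PCDHG gene has its own large first exon, which codes for the extracellular part and is spliced to constant exons that the whole cluster shares, whereas PCDHB genes have no constant exons. Each gene starts from its own promoter, and neurons switch on different sets of them, which gives cells a surface identity that like cells recognise through binding of identical isoforms. Non-clustered protocadherins stand alone in the genome and signal through longer cytoplasmic tails, several of them to the actin machinery.

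Most promoters of the clustered genes share a conserved sequence element with a CGCT core. The stretches below show the letters around that core in members described further on and in PCDHA8. Each is a 28-base stretch upstream of a RefSeq gene start (build GRCh38.p14, plus strand, 5′ to 3′), with the CGCT core in capitals.
PCDHGA3 (chr5:141343769-141343796): aggcctcttagtgtCGCTgttgaccact
PCDHGA1 (chr5:141330405-141330432): aggactgtgggcgcCGCTgttcactaat
PCDHGA9 (chr5:141402716-141402743): aggactctgagcgcCGCTgttgatcaac
PCDHGB1 (chr5:141350027-141350054): caacctctgggcgcCGCTgtcgaccaaa
PCDHGC3 (chr5:141475882-141475909): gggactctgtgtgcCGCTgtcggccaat
PCDHA8 (chr5:140841132-140841159): aagccacatgatgtCGCTgtctaccaag
PCDHB7 (chr5:141172568-141172595): aaaacgcaaggtggCGCTgctggctaaa
PCDHB9 (chr5:141187076-141187103): aagccacaaggtggCGCTgcagactgaa
PCDHB16 (chr5:141182312-141182339): agaacgcgtggtggCGCTgcaggttaag
PCDHB10 (chr5:141192301-141192328): aggccacacggtggCGCTgcaggctaaa
Each stretch is the one around a CGCT most like that of PCDHGA3, PCDHB7 or PCDHA8 for its cluster, so likeness within a cluster was part of the choice. Some stretches not printed were still unlike it: PCDHGB7 had 8, PCDHB1 had 11 and PCDHAC1 had 12 of 28 letters equal. Over all stretches found in this way, those printed and the others, ggtgg stood before the core in 11 of 12 PCDHB stretches and gc after it in 9. The core was followed by gt in 17 of 20 PCDHG and 5 of 8 PCDHA stretches and in 1 of PCDHB, so these letters do not separate PCDHA from PCDHG. RefSeq windows from 250 bases before to 50 after a start were at hand for 9 PCDHA, 14 PCDHB, 20 PCDHG and 10 non-clustered members. The letters CGCT, on either strand, were present in all 14 PCDHB and all 25 PCDHG windows (some genes have several starts), in 8 of 9 PCDHA windows and in 10 of 12 non-clustered windows. So short a word is also in 70.01% of all 35116 promoter windows of the same length. The longer word GGTGGCGCT, picked after these sequences were seen and including the core, was in 13 of 14 PCDHB windows, in no PCDHA, PCDHG or non-clustered window, and in 0.501% of all windows. CGCTGT followed after 3 free bases by CCA, picked in the same way, was in windows of 12 of 20 PCDHG genes and 5 of 9 PCDHA genes, in none of PCDHB, and in 0.310% of all windows. The core motif of the insulator protein CTCF (CCA, 2 free bases, AG, 2 free bases, GGC, either strand) was in 1 PCDHB and 1 non-clustered window and in 2.41% of all windows. A match in letters is a description and not a measured binding site. Nor does the lack of a match to so strict a word show that CTCF has no site there.

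In these cells PCDHB and PCDHG genes were in the main higher in the invasive populations than in the controls, PCDHA genes were barely detected, and non-clustered genes had no common direction. Levels are given as CPM, a gene's count divided by the library's total and multiplied by 1000000. No member passed the adjusted threshold. Of the 60 members, 54 had at least 1 count and 32 were tested after a filter on low counts: 13 PCDHB, 13 PCDHG and 6 non-clustered genes, and no PCDHA gene. With edgeR's quasi-likelihood test, blocked by pair and with Benjamini-Hochberg adjustment over 14231 genes, 0 of the 32 were higher and 0 lower at an adjusted p under 0.05, where 0.239% and 0.0351% of all tested genes were. The lowest adjusted p of a member was 0.113. At an unadjusted p under 0.05, 8 members were higher and 0 lower, beside 9.82% and 8.41% of all tested genes (18.2% in either direction). The 8 include PCDHGA3, which passed the filter only through the invasive libraries, where it is high, so its place in that count supports nothing. DESeq2 with the block called 0 members at the adjusted threshold, where it called 0.998% of all genes higher, and gave 1 member an unadjusted p under 0.05. It left some members, PCDHGA3 and PCDHB5 among them, without an adjusted p, so these could not be called. With no filter on low counts the same edgeR test called 3 members higher, PCDHB7, PCDHGA3 and PCDHGA1, in a fit that also called 2.97% of 25577 genes higher.

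Direction was described over the 32 members with at least 40 counts over the 4 libraries together, a cut that favours neither group and that the same number of members passed. Of these, 21 were higher and 4 lower in both pairs, against 33.3% and 32.1% of all genes with as many counts. Both invasive libraries lay above both controls in 19 members and below them in 1, against 23.7% and 19.7% of all tested genes. For PCDHG the split between pairs was 11 higher and 0 lower of 13, for PCDHB 9 higher and 3 lower of 13, and for non-clustered genes 1 higher and 1 lower of 6. The lower count of PCDHB was 2 when library totals were used with no TMM factor, since PCDHB10 then changed direction in pair 1. In the same setting 2 of the 6 non-clustered genes were higher in both pairs. Over all 32 members it gave 22 higher and 3 lower. The median log2 difference of the PCDHG genes, invasive minus control, was 0.59 in pair 1 and 0.69 in pair 2. The PCDHB medians were 0.38 and 0.34, the non-clustered medians 0.02 and −0.02, and those of all tested genes 0.00 and 0.01. Over every member with a count, both pairs were higher for 13 and lower for 1 of the 22 PCDHG genes, and higher for 10 and lower for 3 of the 16 PCDHB genes, against 29.2% and 22.6% of all genes with a count. The medians were then 0.29 and 0.63 for PCDHG and 0.22 and 0.33 for PCDHB. The difference between clustered and non-clustered genes was not tested.

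**Figure D1:**
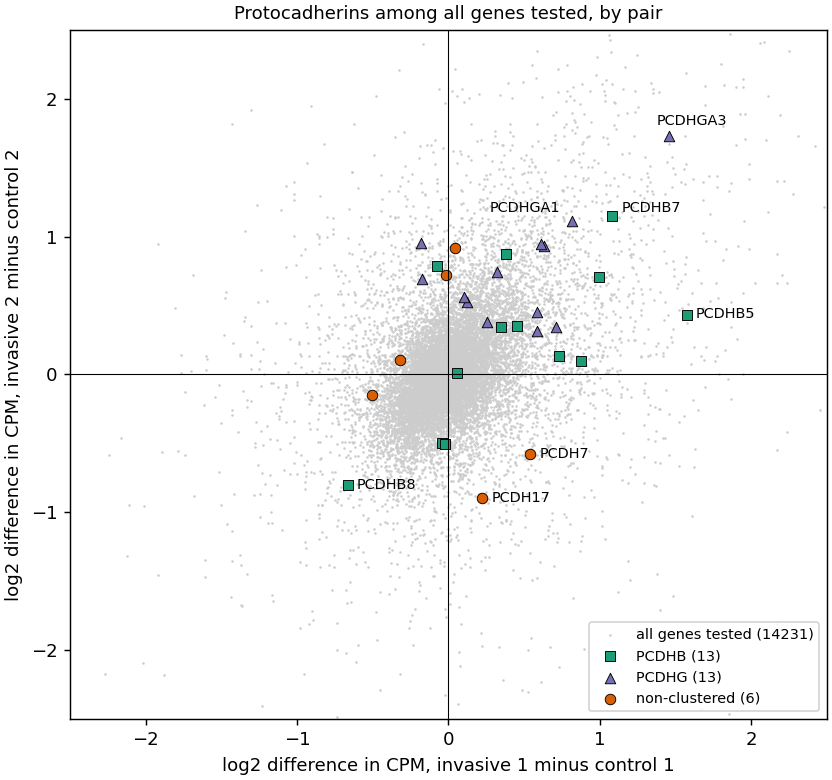
Log2 difference in CPM between invasive and control libraries in pair 1 (horizontal axis) and pair 2 (vertical axis), with 1 grey point per tested gene and coloured symbols for the 32 tested protocadherins. Of the 13 PCDHG triangles 11 lie in the upper right quadrant and none in the lower left, while the non-clustered circles are spread over all 4 quadrants; 77 genes fall outside the axes.

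Because isoforms of a cluster can share reads, each cluster was also summed. PCDHA and PCDHG genes share exon sequence with other protocadherins over a median of 46.5% and 43.9% of their exonic bases, by GENCODE release 29, and no source used here gives the rule by which reads on shared exons were counted. By the same release the PCDHB genes share none, though their coding sequences are alike. In the deposited coordinates, however, PCDHB3 and PCDHB10 overlap neighbouring PCDHB genes. In these bulk libraries, fewer cells with a transcript and less of it per cell cannot be told apart.

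The PCDHG sum was 86.5 CPM in control 1 and 107 in invasive 1, and 66.0 in control 2 and 99.5 in invasive 2. Both invasive libraries thus lay above both controls. The ratio of invasive to control was 1.24 in pair 1 (95% exact interval for counting error only, 1.16 to 1.33) and 1.51 in pair 2 (1.39 to 1.64). Within PCDHG, the 19 variable genes of the PCDHGA and PCDHGB types and the 3 C-type genes were also summed apart. PCDHGA and PCDHGB together gave 29.2 and 26.2 CPM in the controls and 41.5 and 45.6 CPM in the invasive libraries, ratios of 1.42 (1.26 to 1.60) and 1.74 (1.53 to 1.98). The C-type genes summed to 57.3 and 39.8 CPM in the controls and 65.9 and 53.9 CPM in the invasive libraries. Their ratios were 1.15 (1.05 to 1.26) and 1.35 (1.22 to 1.51), and their groups overlapped, since invasive 2 lay below control 1. The ratio of the variable genes was thus the higher one in both pairs. Without PCDHGA3 it was 1.39 (1.24 to 1.57) and 1.702 (1.497 to 1.94). The intervals then overlapped those of the C-type genes in both pairs. These intervals hold no spread between populations, and the difference between the types was not tested.

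The PCDHB sum was 39.3, 53.3, 36.1 and 47.6 CPM. Both invasive libraries were above both controls, with ratios of 1.36 (1.22 to 1.502) and 1.32 (1.18 to 1.48). Without PCDHB7, its most different member, the ratios were 1.28 and 1.25. The non-clustered genes summed to 125 CPM in each control, 131 in invasive 1 and 112 in invasive 2, so the pairs differed in direction. PCDHA genes summed to 33, 22, 16 and 22 counts, and both intervals of their ratio included 1 (0.427 to 1.36 and 0.770 to 3.13).

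**Figure D2:**
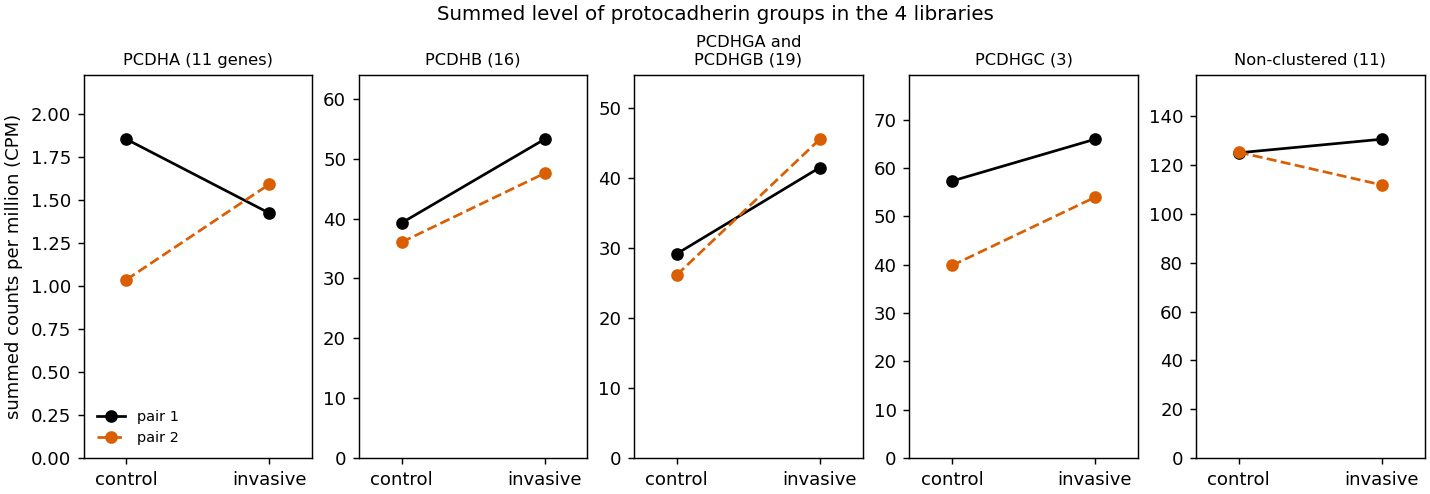
Summed CPM of each protocadherin group in the control and invasive libraries, with a line for each pair (solid black, pair 1; dashed orange, pair 2) and each vertical axis starting at 0. The PCDHB, PCDHGA and PCDHGB lines are higher at the invasive end in both pairs with no overlap between groups, the PCDHGC groups overlap, and the PCDHA and non-clustered lines go opposite ways in the pairs.

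The labelled cell type was checked against markers. VIM, CD44, EGFR, NES and CHI3L1 were each present at 217 counts or more in every library, while SOX2, GFAP, S100B and PROM1 had at most 4. OLIG2 had 31, 9, 13 and 14 counts. Neurons are the cells best known for clustered protocadherins, and the 10 neuron markers summed to 79.2 and 85.1 CPM in the controls and 97.3 and 97.7 CPM in the invasive libraries. Of these, 5 had at most 10 counts in any library, and RBFOX3, NEFL and STMN2, which define neurons, had at most 2. MAP2 had 416, 479, 250 and 553 counts and GAD1 had 300, 272, 212 and 288, while SNAP25 had 583, 618, 622 and 364, SYT1 had 134, 74, 78 and 76 and TUBB3 had 77, 59, 53 and 55. The log2 fold changes were 0.83 ± 0.24 for MAP2, 0.31 ± 0.18 for GAD1, −0.17 ± 0.23 for SNAP25, −0.30 ± 0.27 for SYT1 and −0.01 ± 0.26 for TUBB3. The 5 listed microglia markers summed to 23.6, 32.5, 13.9 and 17.4 CPM, higher in the invasive library of each pair, with P2RY12 at 0 and PTPRC at no more than 1 count in every library. Of that list TMEM119 had 39, 221, 48 and 99 counts and CSF1R had 379, 280, 167 and 140. The 6 astrocyte markers summed to 744, 709, 591 and 719 CPM, and 3 of them had at most 10 counts in any library. Oligodendrocyte markers summed to 106, 124, 87.6 and 89.1 CPM and endothelium markers to 12.3, 11.8, 23.8 and 10.3 CPM. The part of other cells in the clustered result was not tested.

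Among the variable PCDHG genes, PCDHGA3 and PCDHGA1 had the lowest p-values. PCDHGA3 (chromosome 5, 141343829 to 141512979, GRCh38, as are the coordinates of genes below) had 8, 23, 7 and 25 counts. It passed the filter through the invasive libraries alone, and at so few counts its fold is loosely set: the log2 fold change was 1.82 ± 0.43 (SE, adjusted p = 0.128 by edgeR). Its level was 0.451 ± 0.0030 CPM in the controls against 1.65 ± 0.23 CPM in the invasive libraries (mean ± SD, n = 2 per group). The control SD comes from 8 and 7 counts that happened to lie close, and it understates the counting error. The invasive libraries did not overlap the controls. PCDHGA1, the first gene of the PCDHG cluster, had 57, 91, 39 and 78 counts, or 3.20, 5.88, 2.53 and 5.64 CPM. Its log2 fold change was 0.99 ± 0.25 (edgeR adjusted p = 0.139), and its log2 differences were 0.82 and 1.12. On the log2 difference scale, 3 members were at least 2-fold higher in pair 1 and 3 in pair 2, and none was as much lower in either. Of all tested genes, 3.02% and 4.31% were as much higher and 0.970% and 2.07% as much lower. PCDHGA3 and PCDHB7 were the 2 members that were so in both pairs, as were 1.15% of all tested genes. PCDHGA3 is in each of these counts of higher members and passed the filter through the invasive libraries alone, so its place in them supports nothing.

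PCDHGA9 and PCDHGB1 followed, also with no overlap between groups. PCDHGA9 had 4.21, 6.66, 3.24 and 6.36 CPM, a log2 fold change of 0.79 ± 0.24 (edgeR adjusted p = 0.183). PCDHGB1 had 2.97, 4.78, 1.94 and 3.83 CPM (0.80 ± 0.27, edgeR adjusted p = 0.214). PCDHGB2 and PCDHGA10, the other abundant variable genes, had smaller differences. The levels of PCDHGB2 were 3.76, 4.85, 4.34 and 7.38 CPM (0.55 ± 0.25) and those of PCDHGA10 were 5.44, 6.08, 4.66 and 6.80 CPM (0.33 ± 0.24). In both genes each invasive library was above both controls. PCDHGA2, PCDHGA4, PCDHGA5 and PCDHGA6 had log2 fold changes from 0.33 to 0.57. PCDHGB7 was the variable gene whose pairs differed in direction, with log2 differences of −0.18 and 0.95. The 8 variable genes below the filter, among them PCDHGA7, PCDHGA11 and PCDHGB6, had 2 to 28 counts over the 4 libraries.

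The C-type genes differ in sequence from the variable ones, and mouse work ties them to neuron survival and branching. PCDHGC3, whose protein can bind the Wnt pathway scaffold Axin1, was the most abundant clustered gene, with 45.3, 55.3, 34.1 and 44.6 CPM. Invasive 2 lay just below control 1, so the groups overlapped although both pairs had a higher invasive library. Its log2 fold change was 0.32 ± 0.11 (edgeR, unadjusted p = 0.0246, adjusted p = 0.216). PCDHGC5 had 11.3, 10.2, 5.57 and 9.11 CPM, lower in the invasive library of pair 1 and higher in that of pair 2 (0.24 ± 0.26, edgeR adjusted p = 0.664). PCDHGC4 had 13, 6, 3 and 3 counts and was not tested.

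In the PCDHB cluster PCDHB7 had the lowest p of all members. Its counts were 54, 104, 37 and 76, which is 2.71 ± 0.45 CPM for controls against 6.11 ± 0.87 CPM for the invasive libraries (SD, n = 2 per group). The groups did not overlap, and the log2 differences of 1.08 and 1.15 were alike between pairs. The log2 fold change was 1.15 ± 0.25 (edgeR, unadjusted p = 0.00277, adjusted p = 0.113). PCDHB9 had 1.46, 3.10, 1.36 and 2.31 CPM (0.92 ± 0.32), and PCDHB5 had 0.786, 2.65, 1.36 and 1.88 CPM (1.08 ± 0.42). Their adjusted p-values in edgeR were 0.221 and 0.252, and neither had overlapping groups. PCDHB5 rested on 14 to 41 counts, and its log2 differences were 1.57 and 0.43.

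The PCDHB genes with a higher mean CPM than PCDHB7, namely PCDHB16, PCDHB13, PCDHB2 and PCDHB14, had smaller log2 fold changes. PCDHB16 had 8.25, 11.6, 7.38 and 9.47 CPM, a log2 fold change of 0.41 ± 0.19, and both invasive libraries were above both controls. PCDHB14 had 4.49, 5.88, 4.47 and 5.71 CPM (0.35 ± 0.23). PCDHB13 was nearly level, at 5.95, 6.34, 6.15 and 6.22 CPM (0.04 ± 0.21). PCDHB2 had 5.00, 4.85, 4.34 and 7.59 CPM, and its pairs differed in direction. PCDHB8 went the other way from its neighbours PCDHB7 and PCDHB16, with 37, 20, 17 and 8 counts. It reached the filter's level in 2 control libraries but only 1 invasive library, so the filter leaned on the group where it is high. Its log2 fold change was −0.79 ± 0.38 (edgeR adjusted p = 0.322), and the groups overlapped because control 2 lay below invasive 1. PCDHB15 was lower in both invasive libraries than in either control, at 0.786, 0.776, 0.971 and 0.651 CPM (−0.30 ± 0.45), by less than its SE. PCDHB10 had 2.69, 2.72, 2.20 and 1.52 CPM (−0.25 ± 0.32), and its direction in pair 1 depends on the scaling: the log2 difference was −0.02 with TMM factors, while the CPM was slightly higher in the invasive library. In the deposited tables PCDHB10 starts at 141187319, inside PCDHB9 (141187127 to 141191541), and PCDHB3 (141100473 to 141152636) spans its neighbours, so reads there may be split between genes. PCDHB1, PCDHB3 and PCDHB4 had 2 to 23 counts in all and were not tested.

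**Figure D3:**
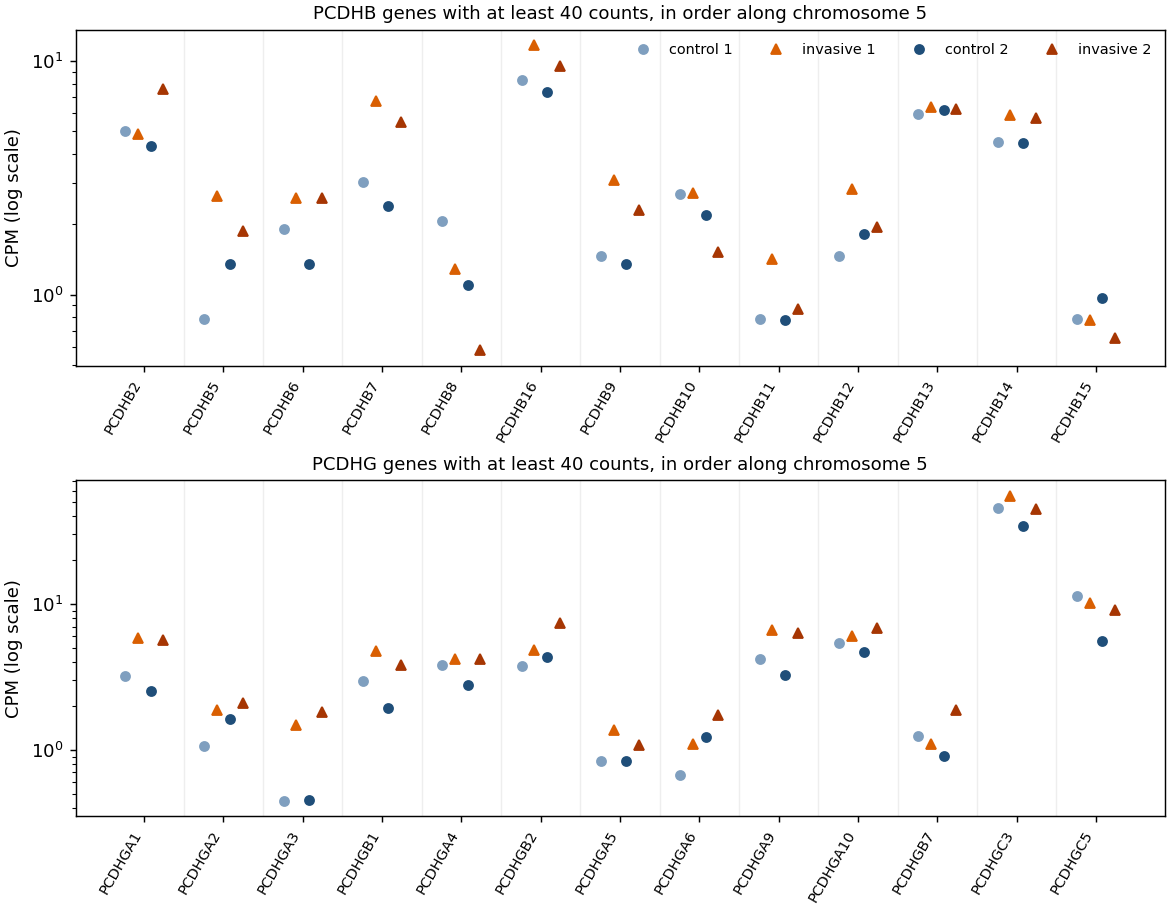
CPM (log scale) of the 13 PCDHB genes (top) and 13 PCDHG genes (bottom) with at least 40 counts, in their order along chromosome 5, with circles for control and triangles for invasive libraries. Triangles lie above circles within each pair for most genes, PCDHB8 is the clearest exception, and PCDHGC3 stands above all others at 34.1 to 55.3 CPM.

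PCDHA transcripts were at the edge of detection. PCDHA8, PCDHA9 and PCDHA11 had 0 counts in all 4 libraries, which allows levels of up to 0.168 to 0.217 CPM (3 counts, counting error only). The C-type gene PCDHAC2 had the most, with 12, 5, 4 and 7 counts, PCDHA10 had 5, 6, 5 and 6, and PCDHAC1 had 5, 3, 0 and 2. A difference between groups was not detectable at this depth.

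Among non-clustered members, PCDH9 and PCDH7 had the highest CPM. PCDH9, a member of the delta class, had 65.0, 53.3, 51.3 and 55.2 CPM (log2 fold change −0.11 ± 0.13, edgeR adjusted p = 0.692). PCDH7, whose cytoplasmic tail binds a protein phosphatase, had 29.4, 43.8, 44.2 and 29.7 CPM. It was higher in invasive 1 and lower in invasive 2 than in the paired control, by log2 differences of 0.54 and −0.57. PCDH17, whose tail recruits the WAVE actin regulators, likewise had 14.4 and 17.3 CPM in pair 1 and 20.8 and 11.1 CPM in pair 2 (log2 differences 0.22 and −0.90). Whether the pairs differ could not be tested with 1 library per group in each.

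PCDH10, which also binds the WAVE complex, had 6.12, 6.47, 4.14 and 7.95 CPM, and both invasive libraries were above both controls (0.48 ± 0.28, edgeR adjusted p = 0.412). PCDH18 had 7.91, 8.02, 3.50 and 5.86 CPM (0.32 ± 0.26), with control 2 below the other 3 libraries. PCDH15, known from the tip links of inner ear hair cells, was lower in both invasive libraries than in their controls, at 2.02, 1.42, 1.29 and 1.16 CPM (−0.37 ± 0.36, edgeR adjusted p = 0.620). PCDH1 had 4, 7, 1 and 12 counts, PCDH12, first described in endothelium, had 1, 0, 1 and 0, and PCDH8, PCDH11X and PCDH19 had none. PCDH11X has a near-identical copy, PCDH11Y, which had 0 counts in both libraries of pair 2. In pair 1 that copy is not listed, so reads lost to it could not be seen.

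**Figure D4:**
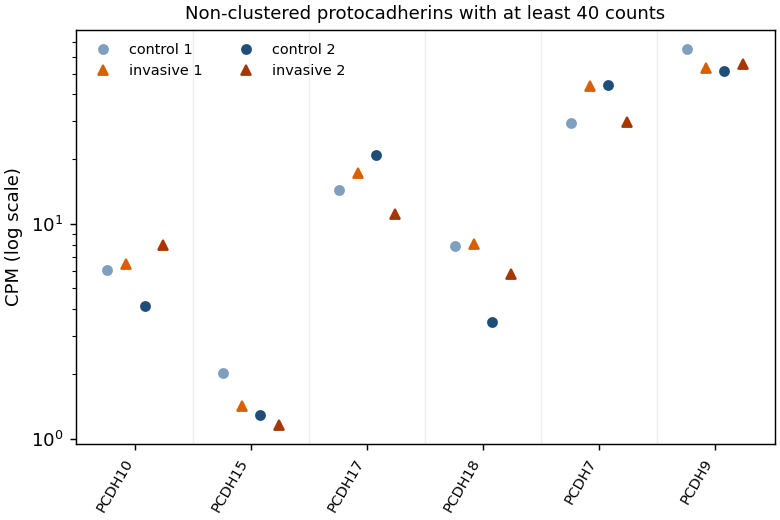
CPM (log scale) of the 6 non-clustered protocadherins with at least 40 counts, with circles for control and triangles for invasive libraries. PCDH7 and PCDH17 are high in invasive 1 and control 2 and low in control 1 and invasive 2, and PCDH10 is the gene whose triangles both lie above both circles.

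Levels between genes were compared as CPM per kilobase of exon sequence that overlaps no other gene on the strand, although counts on shared exons may be included. On that scale PCDHGC3 was highest at 13.8, from 10.5 to 17.0 over the libraries, followed by PCDHGC5 at 3.22 and PCDH7 at 3.00, which differ by less than their spread. PCDHB16, PCDHGA9, PCDHGB2, PCDH17 and PCDH9 lay between 1.82 and 2.01 and have no order beyond their spread. The highest PCDHA gene, PCDHAC2, had 0.128.

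Genes around the family were taken from lists of known regulators, partners and relatives, whose counts stand beside 9.82% of all tested genes higher and 8.41% lower at an unadjusted p under 0.05. Of 21 chromatin regulators of the clustered genes, 0 were higher and 0 lower at the adjusted threshold (edgeR), and at an unadjusted p under 0.05 none was higher and 3 were lower. CTCF, which loops the cluster promoters to their enhancers, had 75.1, 67.6, 65.2 and 67.7 CPM (log2 fold change −0.07 ± 0.11). The cohesin subunit RAD21 had −0.27 ± 0.10 (edgeR adjusted p = 0.229). SMCHD1, a repressor of the clusters, had −0.20 ± 0.10, and the methyltransferase DNMT3B had 0.17 ± 0.21. Of 32 tested partner genes, 0 passed in either direction, with 3 higher and 2 lower at an unadjusted p under 0.05. Among them the kinase PTK2, which PCDHG proteins inhibit, had −0.31 ± 0.11 (edgeR adjusted p = 0.229) and N-cadherin (CDH2) had 0.45 ± 0.22. The partners ranged from −1.19 ± 0.24 for CDH11, another cadherin (edgeR adjusted p = 0.107), to 1.34 ± 0.20 for the Wnt receptor FZD7 (edgeR adjusted p = 0.0758). Of 21 tested other cadherins, 0 passed, 7 were higher and 1 lower at an unadjusted p under 0.05, and the median log2 fold change was 0.31, beside 0.01 for all genes and 0.41 for the 32 protocadherins.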

How the data were processed

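The authors deposited raw read counts per Ensembl gene and normalized values rounded to whole numbers, used here as a score in 1 set of alternatives. The submitters' processing notes name GRCh38, HTSeq, DESeq2, Bowtie, TopHat2 2.0.12 and bcl2fastq 1.8.4, with no order. Libraries were strand-specific per the labels' protocols, but neither labels nor headers say how counting treated strand. The 29387 genes of all 4 tables were filtered with filterByExpr (minimum count 10, total 15) to 14231. edgeR 4.0.16 (R 4.3.3, limma 3.58.1) fitted group with the pair as a block, TMM factors and a robust prior, two-sided, threshold 0.05. The fit leaves 1 residual degree of freedom and leans on a prior worth 5.45. The block follows the series' design text; differences between libraries of a group correlated across genes (r = 0.283). The fit was tested on simulated data. DESeq2 1.42.0 was an alternative. Pair differences are log2 CPM with a prior count of 2. CPM uses library totals. GENCODE release 29 gave exon lengths; it has the deposited start and end for 58 of the 60 members. Promoters are from RefSeq (GRCh38.p14). Members and lists were chosen with earlier results of these data known. Named genes are all tested non-clustered members, the C-type genes of PCDHA and PCDHG and, in PCDHB and PCDHG, the 5 with the highest mean CPM and the 3 highest and 3 lowest log2 fold changes (all above 0 in PCDHG); others named were chosen after their values were seen.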

Additional observations from a re-analysis of the deposited data

How the results depend on the processing

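No protocadherin passed in 7 of the 8 alternatives, the fit with no replicate block (0 higher, 0 lower) and each fit that left out a library (0 in each) among them. DESeq2 gave some members no adjusted p, so these could not pass there. With no filter on low counts 3 passed as higher: PCDHB7 (log2 fold change 1.13, edgeR adjusted p = 0.00308), PCDHGA1 (adjusted p = 0.0178) and PCDHGA3 (adjusted p = 0.0105). Over all genes 34 were higher and 5 lower. These became 2 and 0 with no replicate block, 142 and 29 with DESeq2, 80 and 9 with DESeq2 size factors, 760 and 693 with no filter, and 4 to 83 higher and 0 to 87 lower without 1 library, in fits with no block. Of 192 refits of 24 named genes, 6 turned the direction, all on leaving out 1 library. Without control 2, PCDH18 was −0.22, PCDH7 0.29 and PCDHGC5 −0.26. Without invasive 2, PCDH7 was 0.23 and PCDHB10 0.12, and without control 1, PCDH9 was 0.0719. Over the 4 left-out libraries the log2 fold changes ran from −0.22 to 0.979 for PCDH18, −0.333 to 0.29 for PCDH7, −0.295 to 0.0719 for PCDH9, −0.717 to 0.12 for PCDHB10 and −0.26 to 0.785 for PCDHGC5. The cause was not tested.

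The log2 ratio of the PCDHB sum in pair 1 (0.44) was 0.41 with TMM sizes. With the authors' normalized values it was 0.27 in pair 1. In pair 2 the log2 ratio was 0.26, but only 1 PCDHB gene is listed there, so the pairs cover different sets. Without PCDHB7, an alternative chosen after seeing the data, the log2 ratios were 0.36 and 0.32. Over all members with a count the pair 1 medians were 0.22 for PCDHB, 0.29 for PCDHG and 0.12 for clustered genes. With no TMM factor they were 0.415 for PCDHB and 0.0487 for non-clustered genes. The authors' values hold 6 of the members in both pairs: 1 PCDHB, 2 PCDHG and 3 non-clustered genes. With them the log2 difference of the PCDHB gene in pair 2 was 0.26. Medians in pairs 1 and 2 were 0.0040 and 0.49 for PCDHG, 0.27 and 0.40 for clustered genes, and 0.18 and −0.55 for non-clustered genes. Depth limits PCDHA most, where no gene reached 40 counts.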
